A study of Homo sapiens with 6 samples.

Results

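Signalling through ubiquitin chains was followed in MOLM-13 cells, an established line grown from a human monocytic leukaemia (AML), by the transcript levels of 10 genes: the adaptors TRAF6, TRAF2 and TRAF3, the TAK1 kinase complex genes MAP3K7, TAB1 and TAB2, the IKK kinase genes CHUK and IKBKB, the deubiquitinase gene CYLD and the kinase gene RIPK1. They were chosen by name, as adaptors and kinases around chains joined through K63 of ubiquitin, with earlier results of these data known. All 10 were found among the 56638 rows of the deposited count table. Poly(A) RNA was read from 3 libraries of cells given 2 µM UC-764864 for 24 h (UDI0051, UDI0052 and UDI0053) and 3 libraries of cells given DMSO, the solvent (UDI0054, UDI0055 and UDI0056). UC-764864, written UC-744864 in the series design text, is called an inhibitor of the ubiquitin-conjugating enzyme UBE2N in the series title. All libraries come from a single cell line, and the labels do not say that those of a group were separate cultures, so the p-values given here cover no more than the spread among these 6 libraries, which may be technical.

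UBE2N, paired with UBE2V1, builds K63-linked chains together with ring-type ligases such as TRAF6. TAB2 and its relative TAB3 bind these chains and bring the kinase TAK1, encoded by MAP3K7 and held active by TAB1, to the IKK complex, which IKBKG links to the chains and whose kinases CHUK and IKBKB release NF-kB by marking IkB proteins for destruction. CYLD cuts the chains and ends the signal. In myeloid cells these steps carry signals from Toll-like, interleukin-1 and TNF receptors. The comparison asks whether the inhibitor left the transcripts of this relay at other levels than the solvent did.

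Libraries held 16136156 to 25014437 counts. Of 11 markers of a monocytic leukaemia line, 10 stood at 1 CPM or more in every library, and CD14 stood at 0.198 to 0.474 CPM (CPM, read counts brought to a common library size by TMM factors). Their summed level was 6392.5 to 7388 CPM after UC-764864 and 4141 to 4403 CPM after DMSO. LYZ, the lysozyme gene, made up most of it, with 5326 to 6331 and 3055 to 3295 CPM. The other 10 markers summed to 1057 to 1070 CPM after UC-764864 and 1086 to 1177 CPM after DMSO. FLT3, at 439 to 545 CPM, was the largest part of that sum, which hides wider ranges of single genes. Over all libraries CEBPA ran from 2.78 to 24.1 CPM and ITGAM from 13.4 to 34.2 CPM. Each was lowest in a UC-764864 library and highest in a DMSO library, the reverse of LYZ. Of 15 markers of lymphoid, erythroid, megakaryocytic, stromal and epithelial cells, 4 were at 0 in all libraries, only KRT8 reached 1 CPM in every library, and the sum was 4.40 to 5.32 CPM after UC-764864 against 7.0 to 8.83 CPM after DMSO; the part of these shifts in the results was not tested. UDI0052 and UDI0056 had the smallest share of counts in genes of at least 60% GC, 9.85% and 10.1%, against 11.9% to 13.7% in the other libraries. In UDI0055, 3799 rows stand at 0 (X, Y and mitochondrial genes and the end of chromosome 22). These were taken as missing and left out; none of the 10 genes is among them, but the partner genes TAB3 and IKBKG are.

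Stretches before the annotated starts of 6 of the genes are shown because they hold a match to a motif of pathways named here. The RefSeq promoter table (GRCh38.p14; 250 bases before to 50 after each start) held 9 of the 10 genes in 14 windows; IKBKB was not matched. The NF-kB consensus motif was found, on either strand, in 4 of these 14 windows and in 11.3% of all 35116 windows of the same length. A pair of GAAA runs with any 2 bases between, part of interferon-responsive elements, were in 2 of the 14 windows, which overlap each other, and in 3.57% of all windows. The ETS core CCGGAAG was in 2 of 14 and 10.3%. The cyclic AMP element TGACGTCA was in 1 of 14 and 1.85%, the NRF1 palindrome in 0 of 14 and 1.24%, and the SP1 box GGGCGG in 12 of 14 and 45% of all windows. TAB2 and CYLD hold more than 1 NF-kB match, and the first before the start is shown. A match describes letters and is not a measured binding site. Capitals mark the match, each stretch is read 5′ to 3′ on the gene's strand, and a match on the other strand appears as its reverse complement.
TRAF3, NF-kB consensus, chr14:102777396-102777445, plus strand: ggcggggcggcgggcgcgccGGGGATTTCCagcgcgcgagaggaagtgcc
TAB2, NF-kB consensus, chr6:149318178-149318227, plus strand: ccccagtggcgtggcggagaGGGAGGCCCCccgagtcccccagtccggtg
CYLD, NF-kB consensus, chr16:50741877-50741926, plus strand: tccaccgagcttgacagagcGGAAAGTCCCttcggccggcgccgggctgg
RIPK1, paired GAAA, chr6:3068291-3068340, plus strand: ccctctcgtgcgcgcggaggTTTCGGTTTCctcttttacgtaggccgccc
MAP3K7, ETS core, chr6:90587073-90587119, minus strand: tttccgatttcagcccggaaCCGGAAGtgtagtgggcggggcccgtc
CHUK, ETS core, chr10:100229615-100229661, minus strand: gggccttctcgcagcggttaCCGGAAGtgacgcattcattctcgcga

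All 10 genes passed the filter on low counts, and none was called higher or lower after UC-764864 (edgeR quasi-likelihood test, Benjamini-Hochberg over 13490 genes, adjusted p under 0.05). Of all genes tested, 13.2% were called, 5.11% higher and 8.13% lower (690 and 1097 genes; scaling by library size alone gave 508 and 1271). At an unadjusted p under 0.05 stood 2 of the 10, TRAF3 and RIPK1, against 31.5% of all genes, and DESeq2 called 0 of the 10, while it called 6.35% of all genes higher and 10.2% lower. The median log2 fold change of the 10 genes was 0.16, against 0.01 over all genes tested, and their values ran from −0.11 (CYLD) to 0.43 (TRAF3). For 4 of them, TRAF6, TRAF3, IKBKB and RIPK1, every UC-764864 library was above every DMSO library. Over all genes that was so for 19%, 17% lay wholly lower, and in either direction groups did not overlap for 36.1%. In bulk RNA, fewer cells with a transcript and less of it per cell cannot be told apart.

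**Figure D1:**
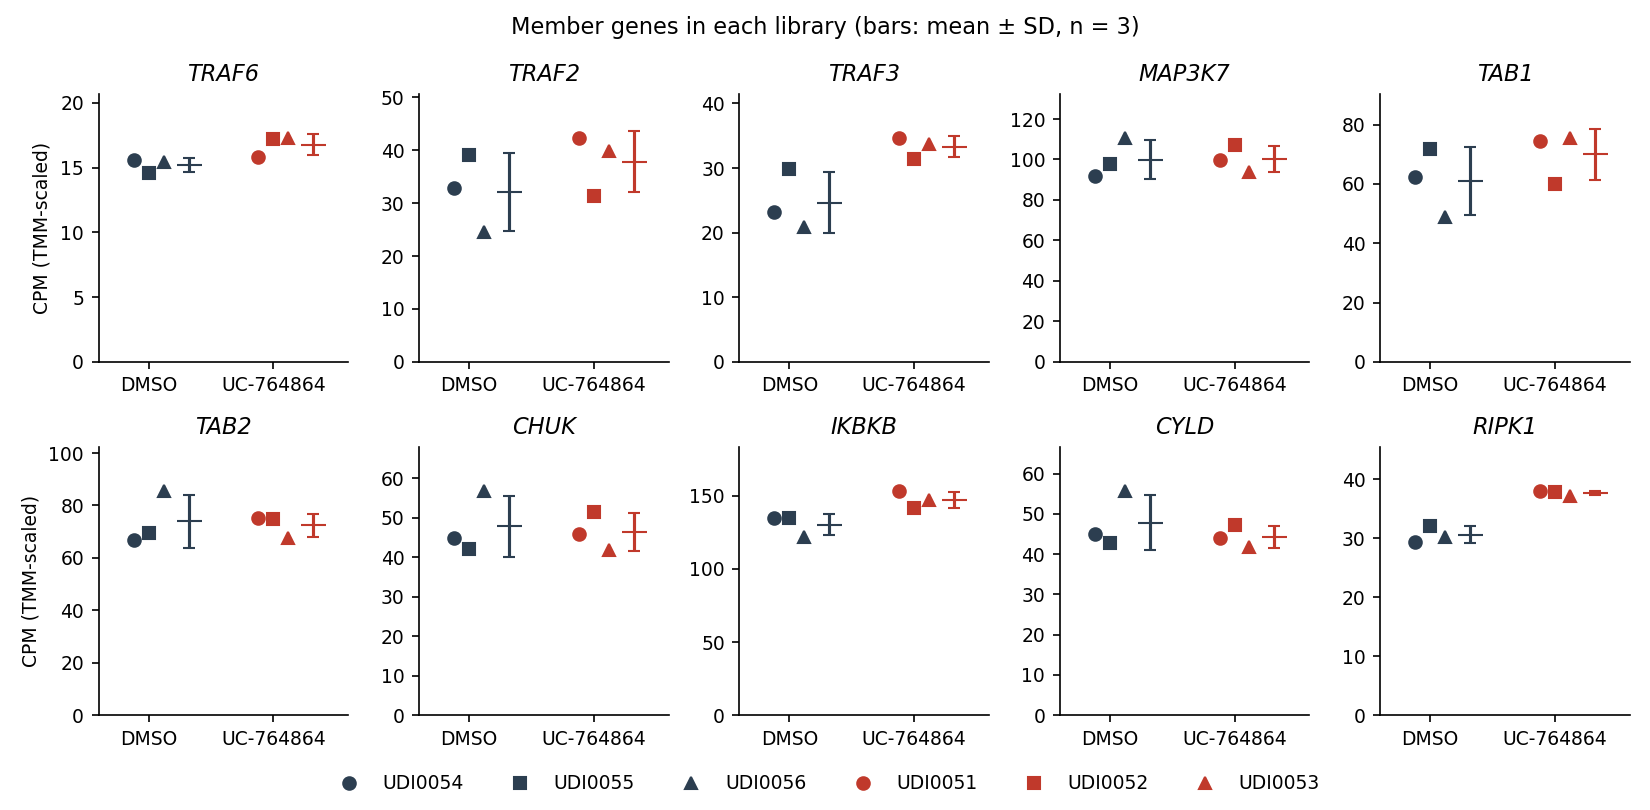
CPM of the 10 genes in each library, DMSO in dark blue and UC-764864 in red, with the mean ± SD of 3 libraries beside the points and each axis starting at 0. TRAF3, RIPK1, IKBKB and TRAF6 show no overlap between treatments, while UDI0056 is the highest library for MAP3K7, TAB2, CHUK and CYLD and the lowest for TRAF2, TRAF3, TAB1 and IKBKB.

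Among the adaptors, TRAF3 had the largest difference of the 10 genes. TRAF3 restrains the kinase MAP3K14 and with it the non-canonical NF-kB pathway, and also serves antiviral signalling. It stood at 34.6, 31.5 and 33.7 CPM in UDI0051, UDI0052 and UDI0053, and at 23.2, 29.9 and 20.8 CPM in UDI0054, UDI0055 and UDI0056. The DMSO libraries were the more scattered, and UDI0055 came within reach of the lowest UC-764864 library. The means were 33.3 ± 1.63 and 24.6 ± 4.69 CPM (SD, n = 3 per group), a 1.35-fold ratio with a log2 fold change of 0.43 ± 0.15 (SE; 95% interval 0.11 to 0.75) that did not pass (edgeR adjusted p = 0.071). Without UDI0055 TRAF3 passed, at 0.59 (edgeR adjusted p = 0.0109), in a fit that called 11.1% of all genes higher and 12.6% lower. With any other single library left out it did not pass, at 0.33 to 0.44 (edgeR adjusted p = 0.103 to 0.239).

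TRAF2, the adaptor of TNF receptor complexes that brings in the ligases BIRC2 and BIRC3, varied more between libraries than between treatments. Its values were 42.3, 31.4 and 39.9 CPM after UC-764864 and 32.8, 39.1 and 24.5 CPM after DMSO. The groups overlapped, and the lowest library of each was the one poor in GC-rich genes, UDI0052 or UDI0056. The log2 fold change was 0.23 ± 0.17 (95% interval −0.15 to 0.61; edgeR adjusted p = 0.382).

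TRAF6, the ligase and adaptor of the Toll-like and interleukin-1 receptor branch, had the fewest counts of the 10 genes. It stood at 15.8, 17.2 and 17.3 CPM after UC-764864 and at 15.6, 14.6 and 15.4 CPM after DMSO. The groups were narrow and lay just apart, 15.8 against 15.6 CPM at their nearest. Counts of 234 to 356 per library put the counting error alone at 5.30% to 6.54% of a value. The log2 fold change was 0.14 ± 0.12 (95% interval −0.13 to 0.41; edgeR adjusted p = 0.459).

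RIPK1, the kinase that carries K63 and linear chains at the TNF receptor and can turn the signal to cell death, had the tightest UC-764864 group. Its libraries read 37.9, 37.7 and 37.2 CPM, against 29.3, 32.1 and 30.2 CPM after DMSO. The gap between the groups was wider than the range inside either of them. The means were 37.6 ± 0.362 and 30.5 ± 1.44 CPM (SD, n = 3 per group), 1.23-fold apart, with a log2 fold change of 0.30 ± 0.11 (95% interval 0.05 to 0.55) that did not pass (edgeR adjusted p = 0.0948). CYLD, the eraser of K63 and linear chains, stood at 43.9, 47.2 and 41.8 CPM after UC-764864 and at 44.9, 42.9 and 55.5 CPM after DMSO. The groups overlapped, with UDI0056 alone above the rest. CYLD had a log2 fold change of −0.11 ± 0.13 (95% interval −0.39 to 0.18; edgeR adjusted p = 0.61).

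In the TAK1 complex, MAP3K7, the kinase itself, had nearly equal group means. Its libraries read 99.7, 107 and 93.9 CPM after UC-764864 and 91.6, 97.7 and 111 CPM after DMSO, for a log2 fold change of 0.0049 ± 0.12 (95% interval −0.25 to 0.26; edgeR adjusted p = 0.983). The higher library of each group was again UDI0052 or UDI0056. TAB1, the activating partner of TAK1, showed the reverse order, with 74.5, 60.1 and 75.4 CPM after UC-764864 and 62.3, 71.8 and 48.8 CPM after DMSO. Its log2 fold change was 0.20 ± 0.15 (95% interval −0.14 to 0.53; edgeR adjusted p = 0.403). TAB2, the partner that reads K63 chains, stood at 75.3, 74.7 and 67.5 CPM after UC-764864 and at 66.9, 69.4 and 85.3 CPM after DMSO. Its groups overlapped, UDI0056 being the highest of the 6, and the log2 fold change was −0.026 ± 0.13 (95% interval −0.30 to 0.25; edgeR adjusted p = 0.907).

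Of the IKK kinases, IKBKB, which drives the canonical pathway, was higher in each UC-764864 library, though by little. It stood at 153, 142 and 147 CPM against 135, 135 and 122 CPM after DMSO, means of 147 ± 5.54 and 130 ± 7.33 CPM (SD, n = 3 per group). The log2 fold change was 0.18 ± 0.11 (95% interval −0.059 to 0.41; edgeR adjusted p = 0.287). CHUK, the kinase of the non-canonical pathway, overlapped between groups, with 45.9, 51.3 and 41.8 CPM after UC-764864 and 44.9, 42.0 and 56.6 CPM after DMSO. Its log2 fold change was −0.044 ± 0.14 (95% interval −0.35 to 0.26; edgeR adjusted p = 0.856). No interval of the 10 genes reached a 2-fold change in either direction. Reads of CYLD and TAB2 cannot be told apart from those of annotated antisense genes if counting did not use strand, which is not given in the sources used here.

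**Figure D2:**
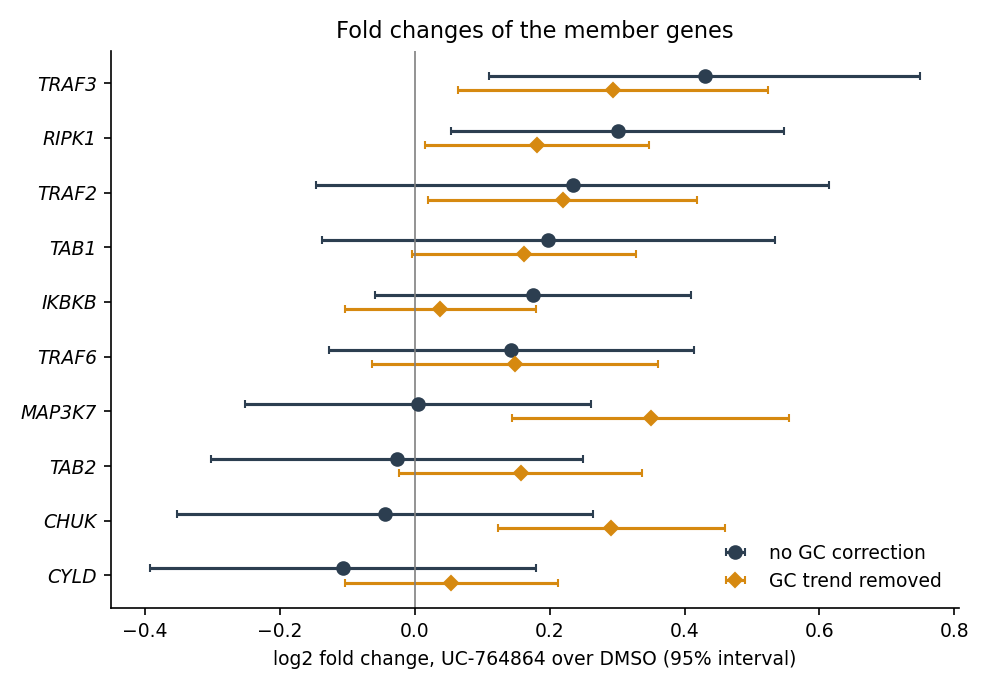
Log2 fold changes of the 10 genes, UC-764864 over DMSO, with 95% intervals, as fitted (circles) and with each library's GC trend removed (diamonds). As fitted, the intervals of TRAF3 and RIPK1 lie above 0, though neither passed after adjustment, and with the GC trend removed CHUK and MAP3K7 move to 0.29 and 0.35.

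Levels were compared between genes per kilobase of annotated exon (GENCODE v29, GRCh38; not necessarily the models used for counting), as the mean ± SD of all 6 libraries. The TAK1 complex genes and IKBKB had the highest means, with TAB1 at 14.7 ± 2.33, MAP3K7 at 13.8 ± 1.02, IKBKB at 12.3 ± 0.97 and TAB2 at 12.2 ± 1.15 CPM per kb. Below them came TRAF2 at 9.56 ± 1.82, RIPK1 at 8.05 ± 0.943 and CHUK at 6.80 ± 0.837 CPM per kb. CYLD at 3.55 ± 0.387, TRAF3 at 3.50 ± 0.687 and TRAF6 at 3.28 ± 0.219 CPM per kb were lowest. Neighbours in this order overlapped over the libraries except at 1 step, where CHUK, never under 6.04, stood above CYLD, never over 4.29 CPM per kb. The TAK1 and IKK kinases thus had more transcript per length than the TRAF6 adaptor upstream of them in each library.

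The variation between libraries followed the GC content of the transcripts. MAP3K7, CHUK, TAB2 and CYLD, with 37.4% to 41.2% GC, were on average higher in UDI0052 and UDI0056 than in the other libraries of the same treatment, by 0.18, 0.30, 0.20 and 0.24 on the log2 scale, though TAB2 was not highest in UDI0052 (74.7 against 75.3 CPM in UDI0051). TRAF2 and TAB1, with 61.4% and 60.4% GC, were lower there, with mean differences of −0.47 and −0.39. TRAF3 at −0.23 and IKBKB at −0.11, with 52.1% and 52.6% GC, lay between, and TRAF6 and RIPK1 at 0.047 and −0.0081 hardly differed. The closest profiles over the 6 libraries, by the root mean square difference of centred log2 CPM, were those of CHUK and CYLD (0.0488), MAP3K7 and TAB2 (0.0504) and TRAF2 and TAB1 (0.0536), and the farthest of the 45 pairs was TRAF2 with CHUK (0.411). The closest pairs join genes of like GC content, and each profile shares the same 6 libraries. TRAF3 and IKBKB, at 52.1% and 52.6% GC, were 0.184 apart.

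With the trend of each library with gene GC content removed, 2 of the 10 genes were called higher and 0 lower, in a fit that called 15.8% of 11647 genes higher and 16.1% lower. The 2 were CHUK at 0.29 ± 0.08 (edgeR adjusted p = 0.0131) and MAP3K7 at 0.35 ± 0.09 (edgeR adjusted p = 0.0143), which had stood at −0.044 and 0.0049 without it. TRAF3, at 0.29, just missed (edgeR adjusted p = 0.0508), and RIPK1 and TRAF2 had edgeR adjusted p of 0.0875 and 0.0859. The groups did not overlap for 6 of the 10 (TRAF6, TRAF2, MAP3K7, TAB1, CHUK and RIPK1), all higher after UC-764864, against 24.5% of all genes wholly higher and 22.4% wholly lower in that fit. All 10 values were then above 0, with a median of 0.17 against 0.01 over all genes in that fit. The spread between libraries of a group shrank for 7 of the 10 genes, for TRAF2 from 0.29 to 0.13 and for CYLD from 0.15 to 0.056 (SD of log2 values), and grew for MAP3K7 from 0.12 to 0.15, for TRAF6 from 0.062 to 0.086 and for RIPK1 from 0.0487 to 0.0506. Genes under 45% GC took 27.2% to 32.0% of counts after UC-764864 and 28.5% to 36.3% after DMSO, and how much of a difference between treatments the removal takes away was not tested. How the trend was centred changed the count. Removing the trend was planned, but which centring to give first was chosen after these results were seen. The version run first let the trend reset the level of each library. When the trend was allowed to reset the level of each library, 6 of the 10 were called higher against 21.9% of all genes (14% were lower), and when it was centred on the median gene, 7 were against 27.3% (12.1% lower), while the median over all genes moved to 0.06 and 0.11.

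**Figure D3:**
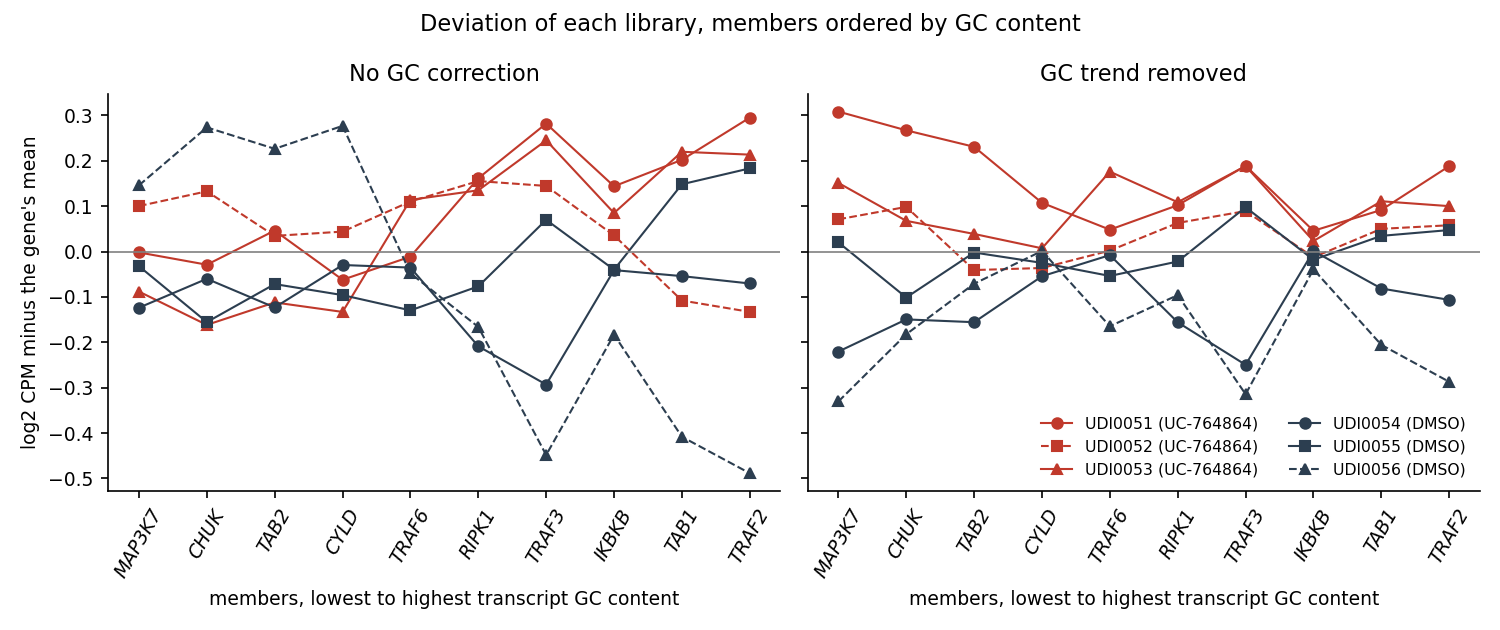
Deviation of each library from the gene's mean log2 CPM, with the 10 genes ordered from low to high GC content of their transcripts, as measured (left) and with each library's GC trend removed (right); UDI0052 and UDI0056 are drawn with broken lines. At left UDI0056 runs from 0.15 at MAP3K7 to −0.49 at TRAF2. At right 6 of the 10 genes have every UC-764864 library above every DMSO library, beside 24.5% of all genes in that fit.

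Ratios of 2 genes within a library do not depend on scaling, and 5 pairs were compared. A ratio does not remove a library's trend with GC content, and in each pair the first gene has the lower GC content. With that trend removed, the single log2 fold changes were 0.29 for CHUK and 0.038 for IKBKB. They were 0.16 for TAB2, 0.35 for MAP3K7 and 0.16 for TAB1, and 0.15 for TRAF6, 0.29 for TRAF3 and 0.22 for TRAF2. The ratios below are without that removal. The log2 ratio of CHUK over IKBKB was −1.74, −1.47 and −1.81 after UC-764864 and −1.58, −1.68 and −1.11 after DMSO, a difference of −0.21 (exact permutation p = 0.4, two-sided). TAB2 over TAB1 differed by −0.23 (exact permutation p = 0.6), MAP3K7 over TAB1 by −0.20 (exact permutation p = 0.5), TRAF6 over TRAF2 by −0.11 (exact permutation p = 0.8) and TRAF3 over TRAF2 by 0.20 (exact permutation p = 0.3). All 5 pairs overlapped between groups, and Benjamini-Hochberg adjusted p-values were 0.75 to 0.8. With 3 libraries against 3 the smallest p is 0.1, so this test could not pass. UDI0056 was the highest library for the first 4 of these ratios, and not for TRAF3 over TRAF2.

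UBE2N, the named target of the inhibitor, was lower in each UC-764864 library, with 157, 171 and 149 CPM against 179, 180 and 209 CPM. Of all genes tested, 17% lay wholly lower after UC-764864. The log2 fold change of UBE2N, −0.25 ± 0.11, did not pass (edgeR adjusted p = 0.156). With the GC trend removed it was −0.18, with the library level refitted −0.13 and with centring on the median gene −0.082. The inhibitor acts on the protein, so this level is no check of the treatment.

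TAB3 and IKBKG are X-linked partners of these genes, a second reader of K63 chains beside TAB2 and the chain-binding subunit of IKK. They were compared in the 5 libraries that hold them, 3 against 2. TAB3 stood at 20.2, 24.2 and 20.0 CPM after UC-764864 and at 18.5 and 24.0 CPM after DMSO, with a log2 fold change of 0.017 ± 0.16 (edgeR adjusted p = 0.949). IKBKG stood at 9.10, 7.23 and 9.03 CPM against 7.87 and 5.12 CPM, at 0.37 ± 0.20 (edgeR adjusted p = 0.194). Neither pair of groups stood apart, and this fit called 23.8% of 14186 genes. Leaving out UDI0054 or UDI0056 leaves a single DMSO library, so that no spread of that group is measured. The log2 fold change of IKBKG was then 0.72 without UDI0054 and 0.099 without UDI0056. IKBKG is uncertain because its pseudogene IKBKGP1 is a near-identical copy. XIAP, an X-linked ligase of the same pathway tested in this fit, stood at 20.4, 25.4 and 19.8 CPM against 25.7 and 31.5 CPM. Its UC-764864 libraries were all lower, though by little at the nearest, 25.4 against 25.7 CPM. How many of all genes lay so in these 5 libraries was not counted. The log2 fold change of XIAP, −0.39 ± 0.16, did not pass (edgeR adjusted p = 0.0883). XIAP was named after its values were seen.

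Of 17 relatives of these genes, which hold the other TRAFs, the IKK-related kinases and other kinases and adaptors of the same complexes, 14 were tested. This list and the lists that follow were chosen with earlier results of these data known. TRAF1 was called lower and none higher, beside 8.13% and 5.11% of all genes tested, with a median log2 fold change of −0.12. TRAF1 is an adaptor without a ring domain that pairs with TRAF2, and its gene is a known NF-kB target. It stood at 3.06, 2.52 and 3.26 CPM after UC-764864 and at 7.82, 4.46 and 7.84 CPM after DMSO. No library overlapped, and the fall was 2.24-fold (log2 fold change −1.16 ± 0.23, edgeR adjusted p = 0.0125). The call was lost without UDI0054 (−1.03, edgeR adjusted p = 0.0543). TRAF5, with 0 to 2 counts per library, missed the filter on low counts.

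Of 24 symbols for ligases, cofactors and deubiquitinases around these chains, 21 were tested in the 6 libraries. Of these, 2 were called lower and 0 higher, beside 8.13% and 5.11% of all genes tested, with a median of 0.03. BIRC2, a ligase that TRAF2 brings to the TNF receptor, stood at 28.5, 35.8 and 32.4 CPM after UC-764864 and at 47.9, 45.3 and 67.7 CPM after DMSO (edgeR adjusted p = 0.0174). UBE2V2, a cofactor of UBE2N, stood at 165, 198 and 166 CPM against 215, 222 and 307 CPM. It was barely past the threshold at −0.49 (edgeR adjusted p = 0.0499) and missed it with the GC trend removed, at −0.16 (edgeR adjusted p = 0.116), without UDI0051 (−0.44), without UDI0053 (−0.45), without UDI0054 (−0.59) and without UDI0056 (−0.31). BIRC2 was lost without UDI0051 (−0.65, edgeR adjusted p = 0.083) and without UDI0053 (−0.73, edgeR adjusted p = 0.0623).

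Of 17 receptors that recruit TRAFs, 9 passed the filter. NGFR, the neurotrophin receptor of the TNF receptor family, was called higher, as were 5.11% of all genes tested. It had 11, 14 and 14 counts after UC-764864 and 2, 1 and 0 counts after DMSO, so it passed the filter through the group where it was high. Summed counts of 39 and 3 gave a ratio of 14.3 between treatments, with an exact 95% interval of 4.54 to 72.3 that covers counting error only (edgeR adjusted p = 0.00644). The DMSO libraries lay below the level of 3 counts, 0.123 to 0.198 CPM, and UC-764864 libraries at 0.496 to 0.906 CPM. None of the other 8 was called.

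Below TAK1, 0 of 8 tested MAP kinase genes of a list of 11 were called, beside 13.2% of all genes tested, with a median of 0.08. The smallest p was that of MAPK8, a JNK kinase gene, at 31.2, 37.7 and 35.6 CPM after UC-764864 and 41.8, 41.4 and 56.9 CPM after DMSO (log2 fold change −0.42 ± 0.15, edgeR adjusted p = 0.0789). It passed with DESeq2 (DESeq2 adjusted p = 0.048), without UDI0055 (edgeR adjusted p = 0.0383) and with no filter (edgeR adjusted p = 0.0342), and moved to −0.095 with the GC trend removed. Below IKK, all 11 genes of NF-kB subunits and IkB proteins were tested, with a median of 0.0066. Of them, 1 was called lower and 0 higher, beside 8.13% and 5.11% of all genes tested. The gene called was BCL3, an atypical IkB protein that works in the nucleus, at 3.65, 2.78 and 4.0 CPM after UC-764864 and 6.58, 6.50 and 6.19 CPM after DMSO (log2 fold change −0.88 ± 0.17, edgeR adjusted p = 0.0116). BCL3 kept its call without each single library in turn.

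**Figure D4:**
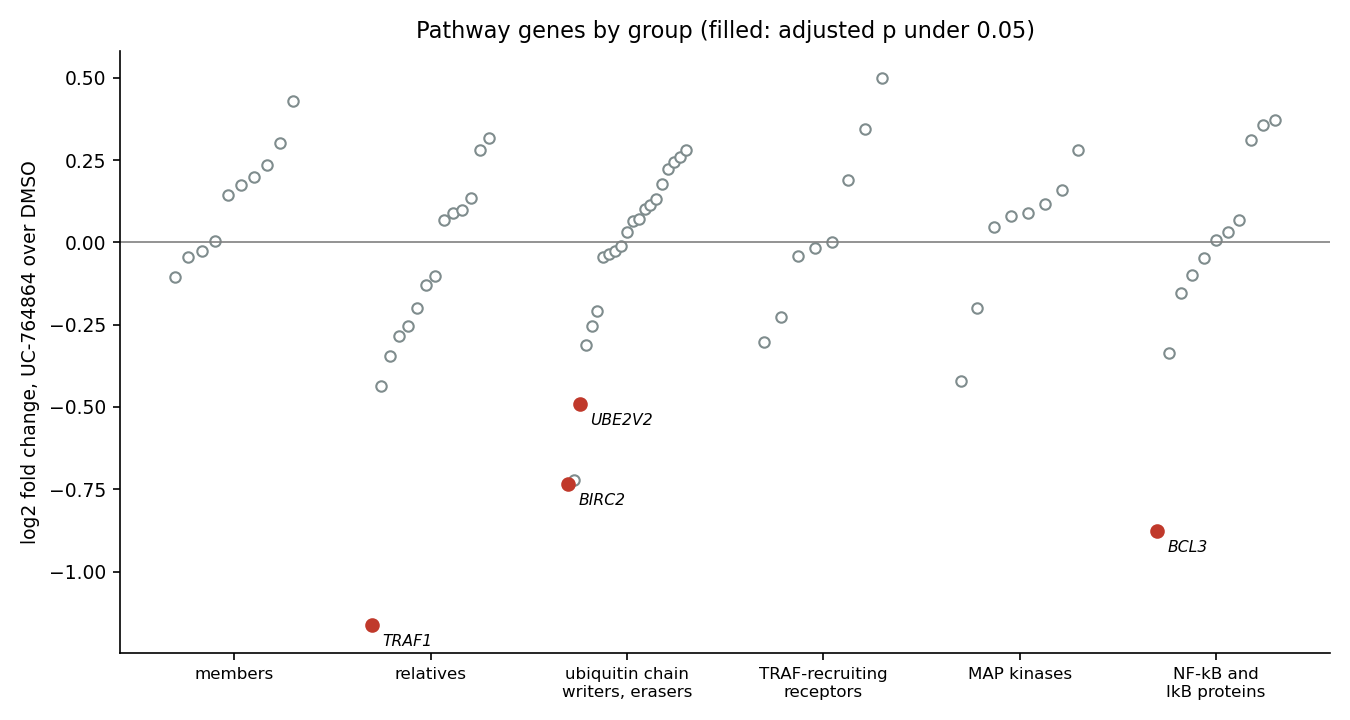
Log2 fold changes, UC-764864 over DMSO, of the 10 genes and of the 5 groups of other pathway genes, with genes of adjusted p under 0.05 filled and named; NGFR, at a low count, is not drawn. None of the 10 genes is filled, and TRAF1, BCL3, BIRC2 and UBE2V2 are the called genes drawn, all below 0. Of all genes tested, 8.13% were called lower and 5.11% higher.

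For the 3 genes with the largest fold changes, the genes of nearest profile over the 6 libraries were sought among 9868 others with a mean of at least 5 CPM. They were CENPO and XPO6 for TRAF3, at root mean square differences of 0.0296 and 0.032 in centred log2 CPM. For RIPK1 they were HNRNPF and YWHAE, at 0.0187 and 0.0189, and for TRAF2 they were ESRRA and LRRC14, at 0.0222 and 0.0285. Such likeness was common, with 604, 1224 and 497 genes within 0.1 of TRAF3, RIPK1 and TRAF2.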

How the data were processed

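The table that the authors deposited gives read counts by gene symbol as whole numbers, not normalized, and comes with a table that gives each column its treatment but no replicate number. Per the submitters' processing notes, FastQC 0.11.7, HISAT2 2.0.5, featureCounts 1.5.2 and GRCh37 were named, without roles. Rows that UDI0055 holds at 0 in unbroken runs were left out (52839 of 56638 rows kept). Counts were filtered (filterByExpr), scaled by TMM and tested with edgeR 4.0.16 in R 4.3.3 (quasi-likelihood F test, treatment as the only term, Benjamini-Hochberg over 13490 genes); DESeq2 1.42.0 was an alternative. SE is the size of the log2 fold change over the square root of F. In simulated counts of 13490 genes, 100 genes were changed 2-fold and 100 were changed 1.5-fold. Of these changes 100% and 55% were recovered, rates that hold for the simulation only. Library pairs differed by a chi-square of 4.75 to 87.3 per degree of freedom, above sampling noise, so all 6 were kept. GC content came from GENCODE v29 transcripts, a median per gene, for 86.3% of genes tested, with a loess trend (span 0.5) on log2 CPM (prior count 2). The genes named are the 10 chosen by name, called genes of each pathway list or else its smallest p, UBE2N, TAB3, IKBKG and the 2 nearest profiles of the 3 genes with the largest change, plus XIAP, added after its values were seen. Members and lists were chosen with earlier results of these data known.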

Additional observations from a re-analysis of the deposited data

How the results depend on the processing

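No paired analysis was possible because the count columns carry no replicate numbers. In simulated counts of 13490 genes, 100 genes were changed 1.5-fold and 100 were changed 2-fold, and 55% of the 1.5-fold changes were recovered. In the data 13.2% of genes were called, and the Benjamini-Hochberg cut depends on the share of genes that change. The 55% therefore describes the simulation and is not the recovery rate of this comparison. Changes of 1.5-fold can be missed, but how many were missed in the data was not tested. Of 150 recomputed fold changes of the 10 genes, 115 kept their direction and their side of the threshold and 23 changed sign. In all 16 newly passed, 12 with the same sign and 4 with a changed sign. TRAF6, TRAF2, TRAF3, TAB1, IKBKB and RIPK1 stayed above 0 in all 15 alternatives. Genes called over the table, 690 higher and 1097 lower, became 22 and 125 with every row as deposited, which puts the missing rows of UDI0055 back as 0, and 1676 were lower with no filter on low counts. With the GC trend removed, 1846 were higher and 1874 lower, on fewer genes. Refitting the library level gave 2549 higher, and centring on the median gene gave 3182 higher. The refit of the library level was the version run first, and the fit given first here replaced it after its results were seen. Centring on the median gene was also chosen after seeing the data. Leaving out 1 library gave 62 (without UDI0051) to 1525 (without UDI0055) higher and 278 to 1729 lower. Of the 10 genes, 2, 6 and 7 were called higher in these 3 GC fits, and 0 to 1 when 1 library was left out. The other pathway genes, 1 higher and 4 lower, gave 2 higher with no filter, beside 3.4% of all genes. With every row as deposited they gave 0 higher and 0 lower, beside 0.157% and 0.891% of all genes. They gave 10, 13 and 14 higher in the GC fits, which called 15.8%, 21.9% and 27.3% of all genes higher. With 1 library left out they gave 1 to 8 higher and 2 to 7 lower. Those fits called 0.452% to 11.1% of all genes higher and 2.03% to 12.6% lower. Signs changed for genes near 0. MAP3K7 was at −0.014 with RLE factors, −0.041 with library size, −0.014 with DESeq2, −0.0036 with no filter, −0.018 with every row as deposited and −0.072 to 0.083 with 1 library left out. In the 3 GC fits TAB2 was at 0.16, 0.20 and 0.25, CHUK at 0.29, 0.34 and 0.39 and CYLD at 0.054, 0.10 and 0.15. Without UDI0052 and UDI0056 TAB2 was at 0.042. With 1 library left out TAB2 ran from −0.094 to 0.0895, CHUK from −0.15 to 0.093 and CYLD from −0.18 to 0.014. The ratios ran from −0.40 to 0.029 for TAB2 over TAB1, from −0.36 to 0.024 for MAP3K7 over TAB1 and from −0.29 to 0.085 for TRAF6 over TRAF2. TAB3 was at −0.036 with library size and −0.17 to 0.20 with 1 library left out, and IKBKG at 0.099 to 0.72. The cause of these shifts was not tested.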
